A study of Mus musculus with 107 samples.

Results

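MBT2 is a mouse bladder cancer cell line. The tumors described here are the 3 treatment-naive tumors that carry the MBT2 label, out of 35 treatment-naive tumors and 107 tumors in all. They grew from MBT2 cells transplanted under the skin of female C3H/HeNCrl mice and were collected without any treatment at about 100 mm3. They were compared with the 32 treatment-naive tumors of 11 other syngeneic models, each model being 1 cell line. Of these, 4T1, EMT6 (both breast), CT26.WT (colorectal), BNL 1ME A.7R.1 (liver), RAG and Renca (both kidney) grew in BALB/cAnNCrlCrlj mice, B16-F10 (melanoma) and MC38 (colorectal) in C57BL/6NCrl, LL/2 (lung) in C57BL/6JCrl, KLN205 (lung) in DBA/2NCrl and Hepa 1-6 (liver) in C57L/J. Each model had 3 tumors, except for MC38 with 2, and the hosts were female except for BNL 1ME A.7R.1 and Hepa 1-6. The same comparison was made in untreated tumors collected on day 8 (NT), with 3 MBT2 tumors and 33 tumors of the other models. C3H mice carried MBT2 and no other model, so mouse strain, cell line and tumor type cannot be told apart, and the subcutaneous site is not the bladder.

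The bladder is lined by urothelium, a layered epithelium with proliferating basal cells below and umbrella cells on the lumen. Umbrella cells build plaques from uroplakins (Upk genes), basal cells express Krt5, Krt14 and the transcription factor p63 (Trp63), and the transcription factors Gata3, Pparg and Foxa1 drive luminal differentiation. Bladder cancers keep these programs to different degrees, and those that lose E-cadherin (Cdh1) and keratins and gain vimentin (Vim) are described as mesenchymal. A bulk tumor sample mixes cancer cells with vessels, fibroblasts and immune cells of the host, so fewer cells of a type and less RNA per cell cannot be told apart.

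Expression is given as TPM, a gene's length-corrected share of all transcripts in a tumor. The number of reads cannot be recovered from it, and the depth is therefore unknown. Differences are on the log2(TPM + 1) scale, MBT2 minus the mean of the 11 other model means, a scale on which changes at low values appear too small. They were tested with limma with Benjamini-Hochberg adjustment, over 22591 genes with a mean of at least 1 TPM in at least 1 model. The test uses the spread between tumors of a model. MBT2 is 1 of 12 models, and a permutation of models could not give a p below 0.0833. Of the genes tested, 6457 (28.6%) were higher in MBT2 and 5928 (26.2%) lower at an adjusted p under 0.05, and 1408 and 1049 of them differed by at least 1 log2 unit. Among the 15109 protein-coding genes tested the shares were 36.9% and 27.4%, against which the counts of gene lists are to be read. The median difference of these protein-coding genes was 0.07. The 3 MBT2 tumors lay above all 32 other tumors for 848 genes (3.75%) and below all of them for 281 (1.24%). In tests against each other model in turn, 407 genes (1.8%) were higher than in every one and 108 (0.478%) lower. Protein-coding genes took 58.2% to 59.6% of the TPM in MBT2 and 37.1% to 60.6% in the other tumors, with a median of 49.3%. Rescaling for this lowered the median difference of all genes from -0.04 to -0.17 (upper quartile) or -0.18 (protein-coding total), and the share of calls that were higher in MBT2 from 52.1% to 33.9% or 33.0%. The direction of a change near these shifts therefore depends on the scaling. List counts under alternatives have no protein-coding share here and are to be read beside the counts over all genes. These were 4240 higher and 8280 lower of 22736 (upper quartile) and 4119 and 8356 of 22781 (protein-coding total). With only the 6 models in BALB/c hosts they were 6650 and 5213 of 20516, and with the 9 in female hosts 6497 and 5580 of 21806. The nearest neighbor of each of the 35 tumors by correlation was a tumor of its own model, and the MBT2 tumors correlated with each other at r = 0.975 to 0.977 across genes, against at most 0.918 with a tumor of another model.

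Uroplakins were at or near 0 in MBT2 tumors. Uroplakin genes Upk2, Upk3a and Upk3b were listed at 0 in all 3 tumors, Upk1b reached 0.05 TPM in 1 of them, and Upk1a had 0.13, 0.32 and 0.97 TPM. The highest value of these 5 uroplakins in any of the 35 tumors was 1.06 TPM, so they were not tested. The related Upk3bl had 0.16, 0 and 0 TPM in MBT2 against up to 34.4 TPM in the other tumors, and was highest in RAG. No uroplakin thus marked these subcutaneous tumors as bladder.

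Keratins were lower in MBT2 than in most models. Krt18, a keratin of simple and luminal epithelium, had 0.93, 0.65 and 0.66 TPM in the MBT2 tumors, and a median of 67.9 and a maximum of 964 TPM in the others. Its log2 difference of -4.95 ± 0.13 (SE, adjusted p = 7.03e-21, limma) was larger in size than that of any gene in the lists, although 1 other model had a lower mean and the groups overlapped. Its partner Krt8 had 2.81, 2.06 and 1.89 TPM against a median of 79.98 (log2 difference -3.56 ± 0.20). Krt7 and Krt19, of luminal urothelium, differed by -2.33 ± 0.15 and -2.43 ± 0.30. The umbrella cell keratin Krt20 had 0.09, 0.05 and 0 TPM. Basal keratins Krt5, with 0, 0.04 and 0.04 TPM, and Krt14, with 0.09, 0.25 and 0.11 TPM, were as low. For both, the median of the other tumors was also low (0.115 and 0.195 TPM), and KLN205 held the high values of up to 864 and 370.4 TPM. MBT2 was thus within the range of most models for basal keratins.

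The urothelial transcription factors did not move together. Trp63 had 0.11, 0.07 and 0.17 TPM in MBT2 and differed by -0.78 ± 0.13 (adjusted p = 9.31e-06), and Gata3 had 2.07, 1.96 and 1.51 TPM and differed by -1.07 ± 0.18 (adjusted p = 1.64e-05). Pparg had 2.54, 4.7 and 2.84 TPM and was higher by 0.62 ± 0.24 (adjusted p = 0.0283), a call that was lost under both rescalings and without the second (0.41) or the third (0.69) MBT2 tumor. It was also lost without CT26 (0.55) or LL/2 (0.56). Foxa1, Klf5 and Tbx3 were chosen after their values were seen, as members of the luminal list with the largest rises. Foxa1 had 5.52, 6.13 and 6.3 TPM (log2 difference 1.61 ± 0.13), Klf5 52.5, 46.5 and 49.1 TPM (2.29 ± 0.16) and Tbx3 22.5, 21 and 26.9 TPM (2.31 ± 0.17), and all 3 overlapped with tumors of other models. Over the 18 luminal genes tested, 5 were higher and 11 lower, with a median of -0.53, beside -0.04 for all genes and 0.07 for protein-coding genes. Of 21 basal and squamous genes, 3 were higher and 15 lower, with a median of -0.76, but their summed TPM of 458, 418 and 446 was 3rd of the 12 models, above a median of 245 TPM in the other tumors. Itga6, a laminin receptor subunit of basal cells that other cells use too, was the largest rise in that list, with 145, 131 and 142 TPM and a log2 difference of 1.802 ± 0.12. In contrast, Perp, a desmosome protein, had 0.37, 0 and 0 TPM (log2 difference -2.45 ± 0.14).

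**Figure D1:**
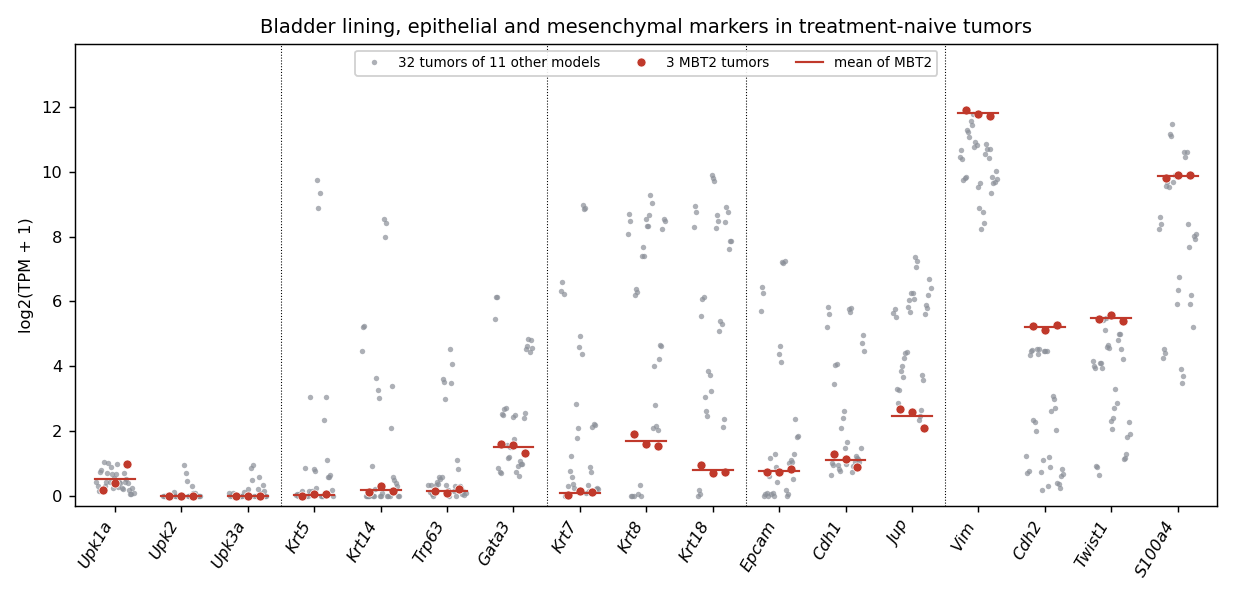
log2(TPM + 1) of bladder lining, epithelial and mesenchymal marker genes in the 35 treatment-naive tumors, with red points for the 3 MBT2 tumors, red lines for their mean and grey points for the 32 tumors of other models. Upk2, Upk3a, Krt5, Krt14 and Krt7 lie at or near 0 in MBT2, while Vim, Cdh2 and Twist1 lie at the upper end of all tumors.

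Most epithelial junction genes were lower. Of 23 genes for cell adhesion, tight junctions and epithelial splicing, 21 were lower in MBT2 and none (0) higher, with a median of -1.04, and under both rescalings 22 were lower. Their summed TPM was 15.97, 14.4 and 10.7 in the MBT2 tumors and between 14.1 and 1498 in the others, with a median of 129.5, so that MBT2 was the lowest of the 12 models. Cdh1 had 1.44, 1.19 and 0.86 TPM (log2 difference -1.504 ± 0.14), and Epcam, another epithelial adhesion protein, 0.66, 0.69 and 0.78 TPM (-1.36 ± 0.18). Tight junction genes Cldn3 and Cldn4 were listed at 0 in the first 2 tumors and at 0.07 and 0.05 TPM in the third, against maxima of 216 and 289 TPM in KLN205. The desmosome and adherens junction gene Jup kept 5.46, 5.04 and 3.32 TPM, against a median of 48.5 TPM in the other tumors (log2 difference -2.502 ± 0.11, adjusted p = 2.28e-16). Spint2, an inhibitor of membrane serine proteases, differed by -2.77 ± 0.17. Most single genes overlapped with other tumors, since several models were low as well.

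Mesenchymal genes were mixed. Vim, the intermediate filament of mesenchymal cells, had 3854, 3486 and 3376 TPM in MBT2 against 300.2 to 3480.0 TPM elsewhere, and the lowest MBT2 tumor lay just below the highest CT26 tumor (log2 difference 1.58 ± 0.12, adjusted p = 1.54e-11). N-cadherin (Cdh2) had 36.96, 33.9 and 37.9 TPM, above all other tumors, whose maximum was 22.3 TPM, and differed by 3.01 ± 0.15. The transcription factor Twist1 had 43.2, 47.5 and 40.8 TPM (log2 difference 2.16 ± 0.10) and S100a4, a calcium-binding protein of motile cells, 897, 947 and 958 TPM (2.06 ± 0.15). Fibronectin (Fn1) went the other way. Its 64.9, 76.7 and 58.3 TPM lay below all 32 other tumors, whose lowest value was 93.8 and median 509 TPM (log2 difference -2.72 ± 0.14, adjusted p = 1.02e-14). Of the 18 genes in this list 9 were higher and 5 lower (median 0.30), which became 7 and 7 under both rescalings.

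The genes of the largest changes are drawn from the 20 protein-coding genes with the largest rise and the 15 with the largest fall among 719 and 208 called protein-coding genes whose 3 MBT2 tumors lay above or below all other tumors. Prph, an intermediate filament of peripheral neurons, had 51.7, 50.9 and 44.1 TPM, against a median of 0.115 and a maximum of 19.8 TPM in the other tumors. Its difference was 4.84 ± 0.14 (adjusted p = 4.52e-20), and MBT2 was also higher than every single model (adjusted p = 4.06e-07 for the weakest of the 11 contrasts). The choice of genes above all other tumors had fixed that direction. Crmp1, which acts in axon guidance, had 50.9, 43 and 47.5 TPM (4.43 ± 0.14), and Erc2, a scaffold of the presynaptic active zone, 36.2, 36.05 and 39 TPM (4.44 ± 0.12). The glutamate receptor family gene Grid1 had 22, 17.7 and 19.7 TPM, and no other tumor exceeded 0.34 TPM. Mapk8ip2, a scaffold of JNK signaling, had 23.9, 18.5 and 18.6 TPM against at most 0.62. Grid1 and Mapk8ip2 were tested through MBT2 alone and had to differ. Lingo1 and Cntnap4, membrane proteins of neurons, differed by 3.97 ± 0.08 and 3.88 ± 0.12. The receptor Gfra2, which binds neurturin, had 31.6, 33.96 and 33.4 TPM against at most 3.6 TPM elsewhere (4.12 ± 0.18). Of 8 nerve and Schwann cell markers 1 was higher and 4 lower (1 and 1 against BALB/c hosts), the Schwann cell markers Sox10 and S100b stood at 0.10, 0.06 and 0.13 and 0.19, 0.67 and 0.12 TPM, and Ncam1 differed by -2.31 ± 0.17. The 1 rise was Pmp22, a myelin protein that many other cells express, with 35.2, 36.04 and 40.7 TPM (1.06 ± 0.17).

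Other large rises ranged from genes near absent elsewhere to genes with clear expression in other models. March11, a membrane-bound ubiquitin ligase, had 28.2, 23.7 and 25.9 TPM, and no tumor of another model exceeded 0.41 TPM, so it was tested through MBT2 alone and had to differ (log2 difference 4.73 ± 0.07). Fgf15, an endocrine fibroblast growth factor that the ileum uses to limit bile acid synthesis, had 26.1, 21 and 18.1 TPM against at most 0.33 TPM. Dpep1, a membrane dipeptidase, had 53.6, 46.4 and 50.4 TPM against at most 3.99 TPM (4.71 ± 0.20). The transcriptional regulator Lmo1, with 70.1, 58.7 and 55.02 TPM, and the integrin subunit Itgb7, with 179, 171 and 168 TPM, were above maxima of 16.6 and 49.2 TPM. Itgb7 is best known from lymphocytes that home to the gut. The kallikrein-related protease Klk10 had 45.7, 45.2 and 47.7 TPM, with CT26 next at up to 20.99 TPM. The largest difference of all belonged to 1700012B09Rik, with 79.02, 63.8 and 71.5 TPM and 5.45 ± 0.15, but CT26 had nearly as much at up to 61.6 TPM, and the contrast with CT26 did not pass (adjusted p = 0.941). Igfbp6, which binds IGF2, had 317, 305 and 278 TPM and likewise did not pass against every single model (adjusted p = 0.247 for the weakest contrast).

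**Figure D2:**
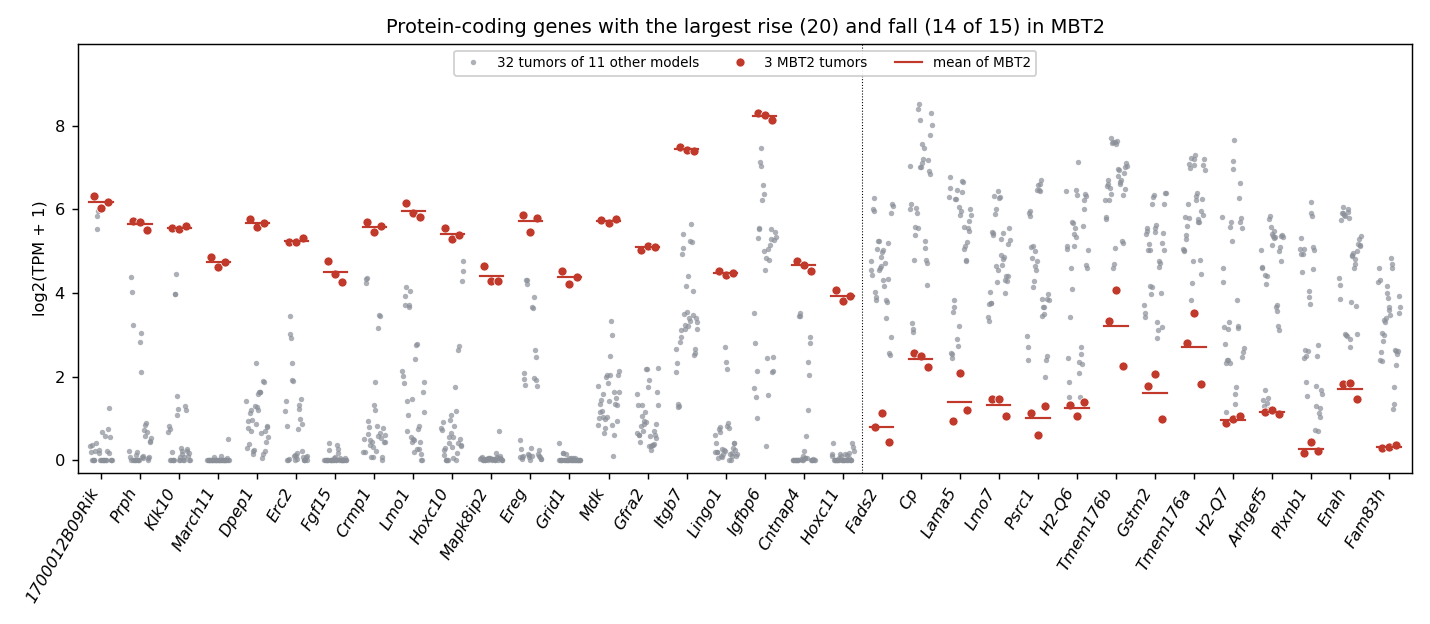
log2(TPM + 1) of the 20 protein-coding genes with the largest rise (left of the dotted line) and 14 of the 15 with the largest fall (right) in MBT2, in the 35 treatment-naive tumors. Red points are the 3 MBT2 tumors, red lines their mean and grey points the 32 tumors of other models; by the way these genes were chosen, no grey point lies beyond the red ones.

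The largest falls were chosen among genes for which MBT2 lay below all other tumors. Higher values in every other model were therefore given in advance, as was the direction against each single model. Fads2, the delta-6 desaturase of polyunsaturated fatty acid synthesis, had 0.73, 1.19 and 0.36 TPM in MBT2 and between 4.68 and 75.9 TPM in the other tumors (log2 difference -3.84 ± 0.16, adjusted p = 5.15e-17, and 5.35e-07 for the weakest single model). Cp, the copper-binding ferroxidase ceruloplasmin, had 4.91, 4.58 and 3.7 TPM against at least 7.38 TPM (-3.75 ± 0.16). Lama5, a laminin chain of basement membranes, had 0.92, 3.21 and 1.29 TPM against at least 4.43 TPM (-3.67 ± 0.14). Lmo7, a protein of cell junctions and actin, had 1.74, 1.74 and 1.09 TPM (-3.54 ± 0.12) and Enah, an actin regulator, 2.54, 2.62 and 1.74 TPM (-2.95 ± 0.14). Arhgef5, an activator of small GTPases, and Plxnb1, a semaphorin receptor, fell by 2.98 and 2.96, and Fam83h, which acts on the keratin cytoskeleton, fell by 2.92. The neighboring genes Tmem176a and Tmem176b, known from myeloid and dendritic cells, differed by -3.17 ± 0.19 and -3.27 ± 0.18. The MBT2 tumors spanned 9.08, 15.9 and 3.75 TPM for Tmem176b, the widest spread among these falls. Psrc1, a mitotic spindle gene, fell by 3.47 and the glutathione transferase gene Gstm2 by 3.19, although close Gstm relatives can share reads with it.

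Hox genes, which record position along the body axis, were higher in 3 of their 4 clusters. Of 39 Hox genes 35 were tested, and 22 were higher and 12 lower in MBT2, with a median of 1.26, and both rescalings also left 22 higher. Of these 22, Hoxc11 and Hoxc13 were tested through MBT2 alone and had to differ. In the Hoxc cluster on chromosome 15 all 8 tested genes were higher, 7 of them above all other tumors, with a median of 2.23. Hoxc10 had 46.2, 38.1 and 40.5 TPM, and Renca was next at up to 25.96 TPM (log2 difference 4.35 ± 0.13, adjusted p = 1.22e-19). Hoxc11 had 15.8, 13.1 and 14.2 TPM, and no other tumor exceeded 0.33 TPM. Hoxc8 had 10.3, 11.98 and 13.7 TPM against at most 9.17 TPM (2.53 ± 0.11). Hoxc6, added after its values were seen, was the member of the 8 that overlapped, with 29.4, 30.4 and 30.3 TPM against up to 31.4 TPM. In the Hoxd cluster on chromosome 2, 6 of 7 were higher (median 1.60), and Hoxd9 had 22.2, 23.3 and 21.01 TPM, behind RAG with up to 41.2 TPM. The Hoxb cluster on chromosome 11 had 6 higher and 3 lower of 9 (median 0.76). In the Hoxa cluster on chromosome 6, 2 were higher and 8 lower of 11 (median -0.50).

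**Figure D3:**
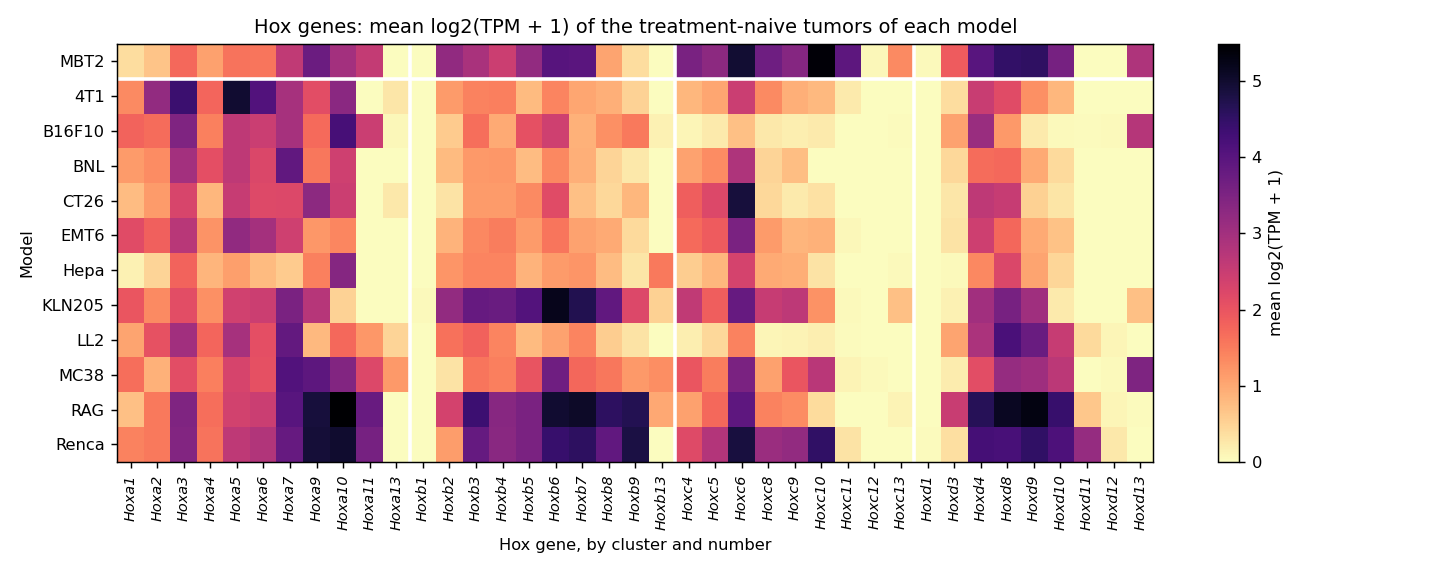
Mean log2(TPM + 1) of the Hox genes (columns, by cluster and number) in the treatment-naive tumors of each model (rows, MBT2 at the top), darker for higher expression. The 8 tested Hoxc genes are darker in MBT2 than in the other models, Hoxc11 being nearly blank elsewhere, while the Hoxa columns are pale in MBT2 up to Hoxa7.

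Ligands of the EGF receptor family differed in opposite directions. Epiregulin (Ereg) had 57.6, 42.95 and 54.6 TPM against a median of 0.215 and a maximum of 18.9 TPM (log2 difference 4.34 ± 0.12, adjusted p = 1.24e-20). Betacellulin (Btc) had 21.3, 17.8 and 23.8 TPM against at most 13.6 TPM (3.24 ± 0.18), and neuregulin 2 (Nrg2) 8.94, 9.26 and 8.45 TPM against at most 2.79 TPM (2.64 ± 0.11). All 3 lay above every other tumor. Tgfa, in contrast, had 0.12, 0.04 and 0.08 TPM against a median of 2 TPM (-1.86 ± 0.09). Of 21 growth factor ligands tested, 7 were higher and 11 lower.

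Among receptor kinases, 7 of 21 were higher and 8 lower, or 5 lower against models in female mice. Fgfr3, the FGF receptor most often altered in luminal bladder cancer, had 8.68, 6.43 and 5.16 TPM, and the third tumor fell below the highest MC38 tumor at 6.07 TPM (log2 difference 1.73 ± 0.19, adjusted p = 2.13e-08). Fgfr2, the receptor of epithelial cells, had 0.13, 0.11 and 0 TPM, and 4T1 held its maximum of 96.7 TPM. Pdgfra, a receptor of mesenchymal cells, was higher by 1.59 ± 0.19, with 51.9, 53.6 and 55.1 TPM. The insulin receptor (Insr) had 3.89, 6.33 and 4.09 TPM, below all other tumors, which began at 11.9 TPM (-1.796 ± 0.10, and adjusted p = 1.05e-06 for the weakest single model).

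Ligands that act on vessels had 6 higher and 3 lower of 15, which became 6 and 6 under both rescalings. Midkine (Mdk), a heparin-binding growth factor, had 52.2, 50 and 53.1 TPM against at most 9.02 TPM (log2 difference 4.25 ± 0.23, adjusted p = 1.64e-14). Adrenomedullin (Adm) had 44.2, 36.95 and 36.9 TPM and Vegfd 14.8, 17.9 and 15.6 TPM, and they were higher by 1.91 ± 0.25 and 1.53 ± 0.20. Angpt1, the ligand that stabilizes vessels through Tie2 (Tek), had 0.12, 0.24 and 0.18 TPM and differed by -1.33 ± 0.11. Of 21 endothelial markers 1 was higher and 7 lower, and both rescalings gave 0 and 11, with 11 lower against BALB/c hosts as well, while 2 were higher and 6 lower against models in female mice. The summed endothelial TPM of 178, 228 and 156 put MBT2 8th of 12 models. Of the 6 genes of the MVD gene score, which the study selected in part by microvessel density in these models, Eng differed by -0.91 ± 0.14, Sparcl1 by -0.49 ± 0.15 and Pcdh12 by -0.42 ± 0.11. Sparcl1 was not called without the third MBT2 tumor (-0.42), without B16-F10 (-0.28) or without BNL 1ME A.7R.1 (-0.33). Cdh5 (0.04 ± 0.14, adjusted p = 0.841) and Tek (-0.22 ± 0.20, adjusted p = 0.385) did not pass. The remaining one, Kdr, was higher by 0.38 ± 0.15 (adjusted p = 0.0417), a call lost under both rescalings, with BALB/c hosts only and without the first or second MBT2 tumor (both 0.33), among other alternatives.

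Of 8 pericyte genes 4 were lower and none (0) higher, with the pericyte proteoglycan gene Cspg4 at 1.1, 1.33 and 0.70 TPM (-1.51 ± 0.14) and Rgs5 at 5.97, 8.85 and 5.42 TPM (-0.899 ± 0.19). Of 18 fibroblast genes 10 were lower and 2 higher, with a median of -0.59, and 5 were lower when only the 9 models in female mice were used. Under both rescalings, and against BALB/c hosts, 13 were lower. Postn, a matricellular protein, had 27.2, 38.8 and 24 TPM against a median of 100.2 TPM (-1.47 ± 0.20), and collagen gene Col12a1 differed by -1.77 ± 0.21. The 2 rises were Pdpn, a mucin-type protein of fibroblasts and lymphatic vessels, with 151, 122 and 145 TPM (2.52 ± 0.18), and Col6a3, a collagen VI chain, whose 279.7, 282 and 289 TPM lay above all other tumors (1.58 ± 0.18).

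Of 25 chemokines tested 15 were higher, 4 lower and 6 not called, with a median of 1.205, and 14 and 5 under both rescalings. Their summed TPM of 1776, 1851 and 1825 was second only to Hepa 1-6. The neutrophil chemokine Cxcl2 had 78.8, 67.05 and 69.9 TPM, above all other tumors, whose maximum was 22.2 TPM (log2 difference 3.63 ± 0.27, adjusted p = 1.16e-11). Its relative Cxcl3 had 50.5, 40.2 and 37.8 TPM against a median of 1.99 and a maximum of 27.9 TPM (3.604 ± 0.30), Hepa 1-6 being next. The monocyte chemokine Ccl7 had 173, 126 and 210.3 TPM against at most 97.01 TPM (2.46 ± 0.19). These 3 were the chemokines of the list that lay above all other tumors. Cx3cl1, a membrane-bound chemokine of endothelium and epithelium, had 0.79, 0.97 and 0.41 TPM against a median of 8.5 TPM (-2.44 ± 0.18). Cxcl1, named for comparison after its values were seen, had 15.3, 10.6 and 12.9 TPM, within the range of 0.17 to 37.3 TPM elsewhere, and differed by 0.63 ± 0.22 (adjusted p = 0.017). Cxcl1, Cxcl2 and Cxcl3 are similar in sequence, and reads shared between them make their split uncertain.

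The start regions of these neighboring genes on chromosome 5 are shown because Cxcl2 and Cxcl3 differed from the other models by more than Cxcl1 did. Each is the 120 bases before the transcription start in RefSeq on build GRCm38.p6, plus strand, at chr5:90891125-90891244, chr5:90903779-90903898 and chr5:90785981-90786100. Capitals mark a form of the kappaB motif (GGG, any 2 bases, then TTTCC) on either strand, and the stretches marked do not overlap.
Cxcl1: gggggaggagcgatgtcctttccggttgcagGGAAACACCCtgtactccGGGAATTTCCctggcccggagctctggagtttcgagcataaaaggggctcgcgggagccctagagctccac
Cxcl2: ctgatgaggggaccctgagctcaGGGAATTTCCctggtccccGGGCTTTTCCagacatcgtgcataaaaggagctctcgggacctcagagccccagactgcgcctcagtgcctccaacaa
Cxcl3: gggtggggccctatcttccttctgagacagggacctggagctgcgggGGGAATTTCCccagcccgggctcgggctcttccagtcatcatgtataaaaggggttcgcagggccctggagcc
In the 250 bases before the start, 1.41% of 32851 RefSeq windows held this motif. Listed genes were counted when any of their windows held it, so that shares of genes and of windows are in unlike units. The motif was found for 5 of the 18 listed chemokines with a window (27.8%), namely Ccl9, Ccl20, Cxcl1, Cxcl2 and Cxcl3. Of these, Ccl20 was listed at 0 in the 3 MBT2 tumors, and Cxcl1 has 2 matches in the stretch shown, as has Cxcl2.

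Interferon-stimulated genes were higher or not called. Of 30, 14 were higher and none (0) lower, with a median of 0.49, and both rescalings left 12 higher. Ifit3, which inhibits viral translation with its relatives, had 32.8, 43.1 and 39.1 TPM against a median of 7.46 TPM, and MC38 reached 148 TPM (log2 difference 1.74 ± 0.27, adjusted p = 5.05e-06). The antiviral enzyme Rsad2 had 23.5, 18.9 and 23.6 TPM (1.597 ± 0.22) and Ifit2 29.8, 34.5 and 36 TPM (1.44 ± 0.16). MBT2 ranked second after MC38 for these 3 genes. Cxcl10, which attracts T cells, had 83.3, 109 and 76.2 TPM (1.398 ± 0.42, adjusted p = 0.00639). Cxcl9, which depends more on interferon gamma, had 49.9, 51.4 and 31.6 TPM, and its difference of 1.23 ± 0.66 did not pass (adjusted p = 0.12).

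The start regions of 3 interferon-stimulated genes that were higher are shown for their interferon response motifs, Ifit1 being added after its values were seen (19.9, 21.2 and 18.9 TPM, log2 difference 1.32 ± 0.22). They are the 170 bases before the RefSeq start on GRCm38.p6, at chr19:34640719-34640888 and chr19:34583359-34583528 on the plus strand and chr12:26456453-26456622 on the minus strand, each written in the direction of the gene. Capitals mark the motif GAAA, any 2 bases, then GAAA, on either strand.
Ifit1: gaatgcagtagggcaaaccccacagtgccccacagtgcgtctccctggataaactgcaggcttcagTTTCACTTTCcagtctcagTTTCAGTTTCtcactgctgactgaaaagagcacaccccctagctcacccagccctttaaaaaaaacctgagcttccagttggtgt
Ifit3: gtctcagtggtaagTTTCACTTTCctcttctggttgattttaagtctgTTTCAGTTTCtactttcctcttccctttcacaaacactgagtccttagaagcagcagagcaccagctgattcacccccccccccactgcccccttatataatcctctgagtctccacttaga
Rsad2: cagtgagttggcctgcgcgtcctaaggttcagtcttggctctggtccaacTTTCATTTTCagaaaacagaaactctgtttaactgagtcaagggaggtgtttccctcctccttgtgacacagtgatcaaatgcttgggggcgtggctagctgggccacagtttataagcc
Of the 32851 windows, 2.98% held this motif. Counted by gene, in any window of the gene, 13 of the 21 interferon-stimulated genes with a window had it (61.9%), which is not in like units. The 13 include genes that were not called, such as Stat2 and Gbp2.

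Of 22 macrophage and monocyte genes 14 were higher and 2 lower (median 0.56), and both rescalings gave 9 and 5. Their summed TPM of 1900, 1887 and 1840 was 8th of the 12 models. Ly6c2, of inflammatory monocytes, had 73.1, 104 and 70.2 TPM against a median of 8.29 TPM (log2 difference 2.63 ± 0.27, adjusted p = 5.12e-09), and the high-affinity IgG receptor Fcgr1 36.5, 46.3 and 47.97 TPM (1.73 ± 0.20). Lyve1, of tissue macrophages and lymphatic vessels, was higher by 1.55 ± 0.37. Spp1, osteopontin, fell instead, with 71.8, 41.6 and 66.1 TPM against a median of 677 TPM (-2.897 ± 0.18, adjusted p = 4.10e-13). Neutrophil genes had 7 higher and 2 lower of 11 (5 and 2 under both rescalings, 2 and 1 on day 8), led by the lectin receptor Clec4d with 19.4, 12.8 and 15.5 TPM (1.79 ± 0.24) and S100a9 with 25.8, 26.8 and 28.8 TPM (1.48 ± 0.36). The partner of S100a9, S100a8, rose by 1.26 ± 0.45 (adjusted p = 0.0185), a call lost under both rescalings and without any 1 of the MBT2 tumors (1.24 to 1.28). It was also lost with a pseudocount of 0.1 (1.51) and with BALB/c hosts only (1.16). Dendritic cell genes had 6 higher and 2 lower of 14 (4 higher under both rescalings, 3 on day 8), with the plasmacytoid marker Siglech at 3.5, 4.32 and 3.25 TPM (1.18 ± 0.20) and Batf3, a factor of cross-presenting cells, at 2.91, 2.35 and 0.88 TPM (-0.81 ± 0.23). Without the third MBT2 tumor the Batf3 difference was -0.49 and the call was lost.

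Mast cell genes were higher for all 6 tested, with a median of 2.11, the highest median of the 44 lists, and for 4 of 6 under both rescalings. The mast cell chymase gene Mcpt4 had 33.6, 32.3 and 20.5 TPM against a median of 5.12 TPM (log2 difference 2.29 ± 0.29, adjusted p = 2.14e-07), and Cma1, another chymase, 29.1, 21.6 and 16.2 TPM (2.27 ± 0.29). The tryptase gene Tpsb2 had 31.7, 25.1 and 15.8 TPM (2.23 ± 0.24) and the carboxypeptidase gene Cpa3 20.6, 14.03 and 9.1 TPM (1.99 ± 0.23). The first MBT2 tumor was highest and the third lowest for all 4 proteases. CT26 tumors reached the same range for each, so the groups overlapped. Skeletal muscle markers had the same order among the MBT2 tumors, with sums of 210, 182 and 108 TPM, and those of the other tumors spanned 5.64 to 780 TPM. None (0) of 10 muscle genes passed the test, and the part of muscle in these results was not tested.

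**Figure D4:**
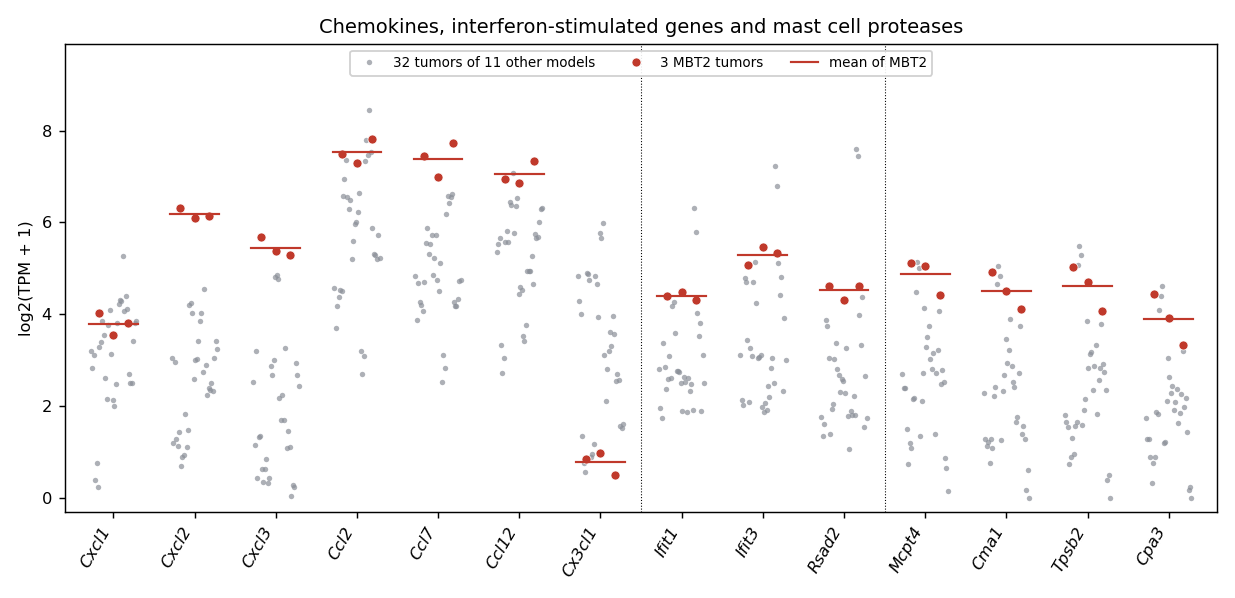
log2(TPM + 1) of chemokines, interferon-stimulated genes and mast cell proteases, divided by dotted lines, in the 35 treatment-naive tumors. Red points are the 3 MBT2 tumors, red lines their mean and grey points the 32 tumors of other models; for Cxcl2, Cxcl3 and Ccl7 every red point lies above every grey point.

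Of 25 T cell genes 9 were higher and 1 lower (median 0.24), a share of rises close to that of all protein-coding genes, and 5 and 2 under both rescalings. Granzyme B (Gzmb) had 17.1, 17.1 and 14.1 TPM against a median of 2.52 TPM (log2 difference 1.52 ± 0.28, adjusted p = 4.51e-05) and perforin (Prf1) 7.55, 5.81 and 4.99 TPM (1.11 ± 0.20). For both, 3 other models had a higher mean. Ctla4 and Cd4 were higher by 0.899 ± 0.15 and 0.800 ± 0.23, the call for Cd4 being lost without the second MBT2 tumor (0.53). Cd8a, the marker of cytotoxic T cells, was the single fall, with 0.44, 1.07 and 0.66 TPM and a difference of -0.55 ± 0.23 (adjusted p = 0.0483), a call lost with a pseudocount of 0.1, without the filter, with BALB/c hosts only and, among MBT2 tumors, without the first (-0.43) or the third (-0.53), among other alternatives. On day 8 the Cd8a difference was 0.93 and called higher (adjusted p = 0.00446, limma). Of 11 NK cell genes 5 were higher and 2 lower, and 3 and 2 under both rescalings. Ncr1, an NK cell receptor, had 4.3, 5.14 and 3.97 TPM (1.13 ± 0.22) and Klrk1, the receptor NKG2D, 11.03, 11.5 and 11.5 TPM (1.09 ± 0.27). Of 8 B and plasma cell genes 5 were higher and none (0) lower. The B cell factor Pax5 had 7.47, 7.15 and 6.26 TPM against a median of 0.12 TPM (1.97 ± 0.11). Igkc, the kappa light chain, had 7.35, 48.98 and 9.19 TPM, with 1 high tumor among 3 (2.06 ± 0.42, and 1.25 without that tumor).

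The T cell-inflamed profile, an 18-gene list related to interferon gamma, had 4 higher and 5 lower members (median 0.05), and 2 and 8 under both rescalings. Against BALB/c hosts 2 were lower, and against models in female mice 3. Ccl5, a T cell chemokine, was higher by 0.91 ± 0.26 with 37.6, 43.1 and 29.9 TPM, and Ido1, the tryptophan-degrading enzyme, differed by -0.99 ± 0.19, with 0.29, 0.17 and 0.12 TPM. PD-L1 (Cd274) had 18.03, 17.9 and 15.6 TPM, and its difference of 0.53 ± 0.27 did not pass (adjusted p = 0.108). Differences of Cd27, Cxcr6, Lag3, Pdcd1lg2 and Tigit did not pass either, with adjusted p from 0.0652 to 0.926. Those of Cmklr1, H2-T23 and Psmb10 were 0.46 ± 0.17, 0.59 ± 0.22 and -0.41 ± 0.17, with calls that were lost under at least 1 alternative. Without the second MBT2 tumor none of these 3 was called (0.33, 0.52 and -0.45), while Cd27 was (-0.50), as was Cxcr6 without the third (-0.46).

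Antigen presentation genes went both ways. The class I gene H2-K1 had 546, 569 and 548 TPM against a median of 195 TPM (log2 difference 1.503 ± 0.18, adjusted p = 8.23e-08) and the peptide transporter Tap2 71.4, 61.3 and 74.3 TPM (1.13 ± 0.19). H2-Q6 and H2-Q7, non-classical class I genes, had 1.51, 1.07 and 1.64 and 0.84, 0.97 and 1.09 TPM, below all other tumors, but neither passed the test against every single model (adjusted p = 0.672 and 1 for the weakest). H2 genes vary between mouse strains and resemble each other, so that these values are uncertain, and how strain alleles entered them was not tested. Of 19 class I genes 9 were higher and 4 lower, and under the rescalings 5 were higher and 7 (protein-coding) or 6 (upper quartile) lower. Against BALB/c hosts only, 4 were higher and 4 lower, and on day 8, against all models, 5 and 3. Of 12 class II genes 1 was higher and 4 lower, and both rescalings gave 0 and 7. Against models in female mice 1 was higher and 1 lower. H2-Ab1 had 33.3, 42.1 and 20.1 TPM against a median of 75.7 TPM (-1.92 ± 0.30). The 1 rise, of the pseudogene H2-Ea-ps, was lost under both rescalings and without the first (0.80) or second (0.72) MBT2 tumor, and had the opposite sign against BALB/c hosts (-1.65), and some other tumors listed it at 0.

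Of 22 cytokines 8 were higher and 7 lower, near the shares of all protein-coding genes, and 4 were lower with a pseudocount of 0.1. The interleukin-1 receptor antagonist Il1rn had 49.5, 37.6 and 62.4 TPM against a median of 11.6 TPM (1.82 ± 0.21), the macrophage growth factor Csf1 134, 141 and 125 TPM (1.37 ± 0.13), and Lif differed by -1.001 ± 0.13. Checkpoint ligands and suppressors had 5 higher and 5 lower of 17, which became 1 and 6 under both rescalings and 8 and 4 against models in female mice. Ptges, an enzyme of prostaglandin E2 synthesis, stood out with 78.95, 65.6 and 69.6 TPM (2.05 ± 0.15, adjusted p = 1.00e-11), below the highest LL/2 tumor at 99.8 TPM.

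Cell cycle genes were higher. Of 27, 21 were higher and 3 lower (median 0.60), with 17 or 18 higher under the rescalings. Bub1b, of the spindle checkpoint, had 61.1, 70.8 and 74.5 TPM, above all other tumors, whose maximum was 45.1 TPM (log2 difference 1.41 ± 0.11, adjusted p = 2.00e-11). Cyclin A2 (Ccna2) had 99.5, 95 and 101 TPM, also above all others (1.04 ± 0.10). The mitotic kinase gene Aurka had 55.7, 59.6 and 57.3 TPM (1.07 ± 0.11). The tumor suppressor locus Cdkn2a, which some cell lines lose, was expressed in MBT2 at 44.1, 37 and 36.1 TPM, with a median of 6.76 TPM elsewhere (2.18 ± 0.11), and Trp53 at 118, 124 and 115 TPM (0.77 ± 0.08). Among p53 targets, Trp53inp1 and Zmat3 differed by -1.61 ± 0.11 and -0.87 ± 0.08, and of 18 genes in this list 3 were higher and 7 lower. Against BALB/c hosts 5 were higher, and against models in female mice 4 were lower.

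Hypoxia and glycolysis genes had 11 higher and 5 lower of 22. The lactate exporter Slc16a3 had 133, 137 and 134 TPM against a median of 30.6 TPM (2.12 ± 0.18) and the glycolytic enzyme gene Pgk1 689, 576 and 739 TPM (1.02 ± 0.16), while P4ha2, a collagen hydroxylase, had 7.36, 8.32 and 6.57 TPM (-1.71 ± 0.20). On day 8 the counts were 7 higher and 9 lower. The Wnt, Hedgehog and Notch list had 3 higher and 16 lower of 23 (median -0.50). Its rises include Wnt10a, with 25.1, 23.9 and 21.9 TPM (1.75 ± 0.12), and Wnt5a, with 12.2, 11.2 and 11.9 TPM (1.74 ± 0.17). Wnt7b, an epithelial Wnt, had 0.03, 0 and 0.13 TPM (-2.44 ± 0.13), and Notum, a Wnt antagonist, was listed at 0 in all 3 tumors. Integrins and matrix proteases had 7 higher and 11 lower of 26, and 4 and 13 under both rescalings. Besides Itgb7 and Itga6, the laminin-binding subunit gene Itga3 had 2.32, 3.38 and 1.66 TPM against a median of 47.7 TPM (-3.56 ± 0.12, adjusted p = 3.99e-19), and the urokinase receptor gene Plaur 147, 120.3 and 112 TPM (1.49 ± 0.09).

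Of 10 hepatocyte genes none (0) was higher and 9 lower, of 8 melanocyte genes 0 and 7, of 7 intestinal genes 0 and 5, of 9 skin genes 0 and 5, and of 3 lung epithelial genes 0 and 3. Against the 6 models in BALB/c mice alone, 1 of the hepatocyte genes was higher and 1 lower, with a median of 0.44, and none (0) of the melanocyte genes was called. There 3 intestinal genes and 1 skin gene were lower. Albumin (Alb) had 0.09, 0 and 0 TPM in MBT2 and reached 2395 TPM in Hepa 1-6, but the median of the other tumors was 0.04 TPM. The pigment gene Tyrp1 was listed at 0 in MBT2 and reached 3308 TPM in B16-F10. The kidney list held 1 rise and 4 falls of 6. Lrp2, the endocytic receptor megalin, had 3.5, 2.04 and 1.92 TPM, above all other tumors, the kidney models included, whose maximum was 0.98 TPM, and was tested through MBT2 alone, so that it had to differ. Pax2 and Cdh16, kidney epithelial genes, were listed at 0. Imprinted and oncofetal genes had 5 higher and 9 lower of 15, with Peg10 at 22.3, 23.9 and 17.9 TPM (2.53 ± 0.11) and Igf2bp1, an RNA-binding protein of fetal tissue, at 21.3, 34.9 and 29.5 TPM (1.75 ± 0.18). Erythroid genes had 2 higher and 1 lower of 6 (1 and 1 under both rescalings), and their sum of 468, 313 and 195 TPM was the highest after Hepa 1-6. Hba-a1 had 278, 184 and 118 TPM and Hba-a2 7.78, 5.52 and 1.41 TPM, and these near-identical hemoglobin genes can share reads, so their split is uncertain.

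Among single models, CT26 was the nearest. At an adjusted p under 0.05 and at least 1 log2 unit, 2722 genes separated MBT2 from CT26, 2924 from LL/2, 3242 from MC38 and 3460 from BNL 1ME A.7R.1, and 5201 and 5337 from Hepa 1-6 and KLN205. With a pseudocount of 0.1 the order began in the same way, with 4205 genes for CT26 and 4712 for LL/2. The Pearson correlation of model means across genes, which are not independent, was 0.932 with CT26, 0.929 with LL/2 and 0.869 (B16-F10) to 0.921 (BNL 1ME A.7R.1) with the others.

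Through MBT2 alone, 141 genes reached the mean of 1 TPM and were tested, 50 of them protein-coding, so that these had to differ. Of the 8 with a mean of at least 10 TPM, March11, Fgf15, Mapk8ip2, Grid1 and Hoxc11 are described above. The pseudogene Gm5611 had 25.5, 19.9 and 31.95 TPM against at most 0.67 TPM. The small RNA genes Gm25713 and Mir218-1 were above 0 in 1 MBT2 tumor only, at 42.97 and 37.1 TPM. Among the MBT2 tumors 1204 genes (5.33%) had a range of over 1 log2 unit, and small RNA genes led them.

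The calls were not spread evenly over the chromosomes, a pattern chosen for description after its values were seen. Over 15109 protein-coding genes 36.9% were higher and 27.4% lower, with a median of 0.07. On chromosome 6, 16.5% of 752 genes were higher and 50.8% lower, with a median of -0.26, and on day 8 the shares were 16.3% and 53.7%. Chromosomes 2, 3, 15, 18, 19 and X had the highest shares of rises, at 48.9%, 46.4%, 47.9%, 55.0%, 50.4% and 46.4%. In windows of 20 Mb, 530 genes between 0 and 120 Mb of chromosome 6 had 45 higher and 323 lower and a median of -0.33, and the next window had a median of 0.03. The Hoxa cluster lies in this stretch, as do Tmem176a and Tmem176b. The medians of single MBT2 tumors there were -0.34, -0.31 and -0.35, and those of other models ran from -0.40 (4T1) to 0.62 (B16-F10). Between 20 and 60 Mb of chromosome 15, 78 of 111 genes were higher and 20 lower, with a median of 0.82, and 38 were higher than in every other model. March11 lies there. The 3 tumors had medians of 0.88, 0.79 and 0.84 in that stretch, and other models lay between -0.44 (MC38) and 0.39 (Hepa 1-6). Between 100 and 140 Mb of chromosome 3, 135 of 215 genes were higher and 47 lower, with a median of 0.67, against -0.49 (RAG) to 0.22 (EMT6) in other models. None of these medians is centered on the median of the same model over all protein-coding genes tested. That median was 0.07 in MBT2, -0.25 in 4T1, 0.05 in B16-F10, 0.09 in MC38, 0.08 in Hepa 1-6, -0.16 in RAG and -0.08 in EMT6. The ranges of other models therefore hold models that were low over all genes, such as 4T1. Unevenness between chromosomes was not particular to MBT2. The medians of its chromosomes spanned 0.56 log2 units, and those of the other models 0.32 (EMT6) to 0.68 (B16-F10).

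**Figure D5:**
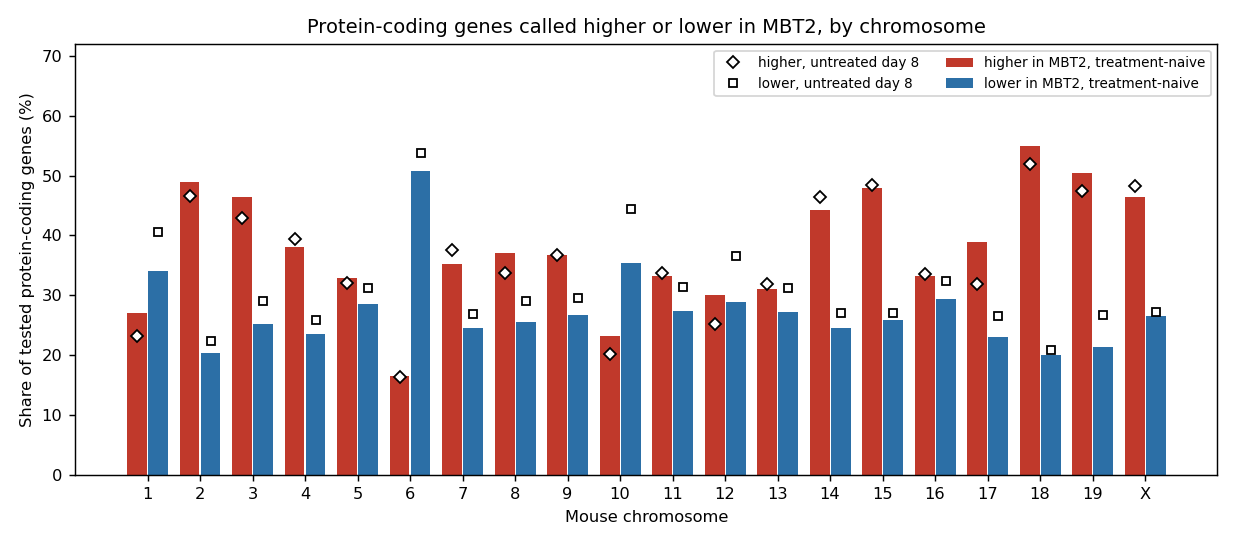
Share of tested protein-coding genes on each mouse chromosome that were called higher (red bars) or lower (blue bars) in MBT2 than the mean of the other models in treatment-naive tumors, with open symbols for the same shares in untreated day 8 tumors. Chromosome 6 has the highest share lower (50.8%) and the lowest share higher (16.5%).

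On day 8 without treatment most differences were found again in other tumors. Of 22339 genes tested 6354 (28.4%) were higher and 6370 (28.5%) lower in MBT2, which became 5306 and 7592 (upper quartile) or 4920 and 7993 (protein-coding total) on rescaling. Genes called in the same direction at both times numbered 10125, which is 81.8% of the treatment-naive calls and 79.6% of the day 8 calls, and 21 were called in opposite directions. Above all other tumors at both times were 527 genes, and below all 133. Day 8 differences were 5.27 for Prph, 4.66 for March11, 4.19 for Hoxc10, -4.31 for Fads2, -5.12 for Krt18 and 3.08 for Cxcl2. Epithelial junction genes were 0 higher and 22 lower, Hox genes 22 and 10, chemokines 14 and 3, interferon-stimulated genes 19 and 0 and mast cell genes 5 and 0. In the test of the change itself, 56 of 23389 genes (0.239%) had a higher MBT2 difference on day 8 and 131 (0.56%) a lower one. These counts became 159 and 53 (upper quartile) or 109 and 72 (protein-coding total) on rescaling, so which direction was the more frequent depended on the scaling. Leaving out 1 MBT2 tumor gave 33 to 91 higher and 39 to 117 lower.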

How the data were processed

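RNA was sequenced from rRNA-depleted libraries of whole tumors. According to the study's methods and processing notes, RSEM 1.2.31 quantified genes from reads that the authors had trimmed (Trimmomatic 0.36) and aligned to the mouse genome mm10 (STAR 2.5.2b). The deposited unit is TPM per gene for 107 tumors (50686 genes, columns summing to 999999 to 1000001), and the depth per tumor is unknown. Both NovaSeq and NextSeq instruments were used, and which tumor ran on which is not given in the sources used here. Biotypes and positions came from GENCODE M21, on the same genome build.

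TPM as deposited were transformed to log2(TPM + 1) and fitted with limma 3.58.1 (R 4.3.3), 1 coefficient for each model, in 35 treatment-naive tumors (23 residual degrees of freedom), in 36 untreated day 8 tumors, and in 71 tumors for the change between times. Treated tumors were not used. Genes with a mean of at least 1 TPM in at least 1 model were tested, and calls were made at a Benjamini-Hochberg adjusted p under 0.05. The labels name the tumors of a group as separate samples and say no more of their source, so that p-values measure the spread between these samples, which may be technical in part. Promoter windows came from RefSeq (GRCm38.p6).

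Named genes were the 20 largest rises and 15 largest falls among called protein-coding genes without overlap, the 4 members of each list with the largest difference, bladder lining markers, and the genes of the MVD gene score and of the T cell-inflamed profile, and some that meet this rule are not reported here. The comparison, the members and the 44 gene lists (685 genes) were chosen with earlier results of these data known. The alternatives were a pseudocount of 0.1, 3 other filters, upper-quartile and protein-coding rescaling, no mean-variance trend, a replicate block, equal weight for each tumor, models with female or BALB/c hosts only, and leaving out each model or tumor. The fit was tested on simulated data.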

Additional observations from a re-analysis of the deposited data

Results flagged for a closer look

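The difference between MBT2 and the other models changed between treatment-naive and untreated day 8 tumors for the following genes, by the interaction term in limma with Benjamini-Hochberg adjustment over 23389 genes in 71 tumors. Among protein-coding genes tested at both times, 35 had a higher and 112 a lower MBT2 difference on day 8. The 5 largest changes in each direction are given together with any gene named in the report, and the tumors of the 2 times were separate samples.

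Cd8a, the cytotoxic T cell marker, gained 1.48 ± 0.36 on the log2 scale (adjusted p = 0.0296), from -0.55 (called lower) to 0.93 (called higher, adjusted p = 0.00446). It had 0.44, 1.07 and 0.66 TPM in the treatment-naive MBT2 tumors and 3.57, 2.98 and 3.31 TPM in those of day 8, which did not overlap. Connective tissue growth factor Ctgf changed by 1.37 ± 0.28 (adjusted p = 0.00551), from 2.05, 2.51 and 2.74 to 11.9, 8.73 and 7.15 TPM. Ch25h, which makes the oxysterol 25-hydroxycholesterol, changed by 1.32 ± 0.28 (adjusted p = 0.00937), from 27.6, 20.8 and 28.6 to 58.6, 40.9 and 48.4 TPM. Ang2, of the angiogenin family, changed by 1.26 ± 0.20 (adjusted p = 1.12e-04), from 0.29, 0.28 and 0.28 to 2.23, 1.54 and 2.05 TPM. Prl2c3, of the prolactin family, changed by 1.61 ± 0.42 (adjusted p = 0.0434), with a difference of -0.76 in treatment-naive and 0.85 in day 8 tumors. Close relatives of Ang2 and Prl2c3 can share reads with them.

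The falls were led by the heat shock gene Hspa1b, with -1.96 ± 0.43 (adjusted p = 0.0114) and 27.1, 53.1 and 24.9 TPM in treatment-naive against 15.6, 8.05 and 16.5 TPM in day 8 MBT2 tumors. The Hspa1b difference from the other models was 1.21 in treatment-naive and -0.75 in day 8 tumors. Car6, a secreted carbonic anhydrase, changed by -1.65 (adjusted p = 0.00322), Angptl6, an angiopoietin-like protein, by -1.37 (adjusted p = 6.39e-05) and the homeobox gene Esx1 by -1.25 (adjusted p = 1.03e-08). Clusterin (Clu) changed by -1.11 (adjusted p = 3.39e-04), from 16.7, 18.2 and 18.1 to 10.1, 8.06 and 9.88 TPM. Of the genes named in the report, Trp53inp1 changed by -0.69 (adjusted p = 0.0128), Wnt10a by -0.68 (adjusted p = 0.0111) and Lingo1 by -0.397 (adjusted p = 0.0162).

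The following 4 genes were chosen after their values were seen. Insig1, a membrane protein that regulates lipid synthesis, changed by 0.62 ± 0.14 (adjusted p = 0.0128), from 31.6, 27.8 and 27.6 to 39.5, 52.4 and 40.4 TPM, and the fatty acid synthase gene Fasn by 0.51 (adjusted p = 0.0482). Smooth muscle actin genes Acta2 and Actg2 changed by 1.05 (adjusted p = 0.0158) and 1.18 (adjusted p = 0.014), with 1 high tumor of 3 on day 8 for Acta2. Beside these, the summed TPM of skeletal muscle markers was 64.8, 35.9 and 27.5 in the day 8 MBT2 tumors, against 210.2, 182 and 108 in the treatment-naive ones, and their part in the result was not tested.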

How the results depend on the processing

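Genes higher in treatment-naive MBT2 numbered 4240 (upper quartile) or 4119 (protein-coding total) beside 8280 or 8356 lower, and genes higher than every other model 261 with the upper quartile. Genes lower than every other model numbered 215 (upper quartile) and 189 (protein-coding total). With only the 6 models in BALB/c mice, 1295 genes were higher and 402 lower than every model, where fewer models had to be passed. With a pseudocount of 0.1, pairs separated by at least 1 log2 unit had 5360 (BNL), 4205 (CT26), 5689 (EMT6) and 4712 (LL/2) genes. For the change between times, genes higher on day 8 numbered 37 (mean of at least 1 TPM over all tumors), 37 (mean of at least 5 TPM), 101 (no filter), 159 (upper quartile) and 109 (protein-coding total), and lower at 53 (upper quartile), 72 (protein-coding total), 67 (without BNL) and 208 (without CT26). The cause was not tested. Leaving out 1 tumor gave 5706 to 6587 genes higher and 4878 to 6081 lower in treatment-naive tumors, 318 to 424 and 78 to 111 against every model, and 5427 to 6420 and 5262 to 6475 on day 8. For the change between times it gave 33 (without treatment-naive MBT2 tumor 1) to 91 (without day 8 MBT2 tumor 5) higher and 39 (without day 8 MBT2 tumor 3) to 183 (without treatment-naive RAG tumor 2) lower.

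With the replicate number as a block, 6498 genes were higher and 5917 lower, and 74 and 109 for the change between times. The numbers do not pair the tumors, since none (0) of 32 same-numbered pairs had correlated deviations over 0.1 (r from -0.042 to 0.056). Among the named genes, 31 of the values under alternatives had the opposite sign. H2-Ea-ps was the only called gene among them, at -1.65 with BALB/c hosts. Csn3 was at 0.025 with a pseudocount of 0.1, and Plin1 at -0.18 and Cdh5 at -0.11 with BALB/c hosts. With the upper quartile, Cdh5, Lag3, Pdcd1lg2 and Tigit were at -0.20, -0.11, -0.056 and -0.19, and with the protein-coding total at -0.21, -0.11, -0.065 and -0.19. Without 1 other model, Lag3 was at -0.018 (4T1), -0.033 (B16-F10), -0.023 (BNL), -0.0082 (EMT6) and -0.051 (LL/2), Tigit at -0.13 (B16-F10), -0.12 (BNL), -0.069 (EMT6), -0.042 (LL/2), -0.024 (RAG) and -0.13 (Renca), Cdh5 at -0.019 (B16-F10) and -0.077 (RAG), and Pdcd1lg2 at -0.011 (LL/2). Leaving out 1 tumor, Cdh5 ran from -0.049 to 0.10, Lag3 from -0.038 to 0.21, Pdcd1lg2 from -0.12 to 0.42 and Tigit from -0.10 to 0.12, each limit being reached without an MBT2 tumor, and Tigit was at -0.00041 without Hepa 1-6 tumor 2. TPM gives no depth, so the precision of low values is unknown.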
